A study of Rattus norvegicus with 4 samples.

Results

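Aatk (apoptosis-associated tyrosine kinase, also called Lmtk1), Lmtk2 and Lmtk3 form the family of lemur tyrosine kinases. The members were looked for by gene symbol in the counts of 2 control and 2 Sox10-deficient libraries of OLN93, an oligodendroglial line of rat cells that became immortal spontaneously. Of the 3 genes, 2 had a row among the 17327 gene symbols. These were Aatk, listed by the authors as ENSRNOG00000004392, and Lmtk2, listed as ENSRNOG00000025155. Expression of Lmtk3 was not analysed here, and only its promoter windows were searched. Aatk passed the filter on low counts and was 1 of 2438 genes tested, whereas Lmtk2 did not pass it.

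The control libraries, labelled Sox10-positive, came from OLN93 cells that the labels call biological replicates and the methods call control clones. The Sox10-deficient (Sox10ko) libraries came from clones A and B, in which Sox10 had been inactivated by CRISPR/Cas9 with different guide RNAs. Each clone was sequenced as 1 library. All cells were grown in the same serum-containing medium, and total RNA was converted into stranded mRNA libraries. The labels do not say how the controls were derived, so that p-values measure the spread between these libraries only. In bulk RNA, fewer cells that express a gene and less of its RNA per cell cannot be told apart.

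Despite their name, the lemur kinases phosphorylate mainly serine and threonine residues. They are anchored in membranes, carry a long carboxyterminal tail, and act in the traffic of endosomes and in axonal transport. Aatk was found as a gene induced during apoptosis of myeloid cells and is best known in neurons, where it is phosphorylated by Cdk5 and acts on Rab11-positive recycling endosomes. In oligodendroglial cells, Aatk matters for a further reason. An intron of Aatk harbours miR-338, a microRNA under which oligodendrocyte precursor cells (OPCs) differentiate, and the gene holds an intronic enhancer that the study tested for its response to Sox10 and Myrf.

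The microRNA sequences are shown because counts from this locus entered the results through a second microRNA gene, Mir3065, which lies on the opposite strand at the same place. Mir338 is on the minus strand at chr10:105796342-105796407 and Mir3065 on the plus strand at chr10:105796325-105796427 of the RefSeq assembly GRCr8, and Aatk itself is on the minus strand. GRCr8 is not the build of the counts. Capitals mark the 66 bases in which each hairpin is the reverse complement of the other.
Mir338 hairpin: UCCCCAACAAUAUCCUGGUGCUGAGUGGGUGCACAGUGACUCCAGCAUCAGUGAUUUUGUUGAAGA
Mir3065 hairpin: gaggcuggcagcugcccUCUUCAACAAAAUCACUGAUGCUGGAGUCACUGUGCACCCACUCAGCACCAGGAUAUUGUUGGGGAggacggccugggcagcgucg
The whole Mir338 hairpin thus lies inside that of Mir3065. The mature forms, in which capitals mark the seed from base 2 to base 8, had 4 different seeds.
rno-miR-338-3p: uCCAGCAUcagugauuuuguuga
rno-miR-338-5p: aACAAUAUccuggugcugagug
rno-miR-3065-5p: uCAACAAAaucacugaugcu
rno-miR-3065-3p: uCAGCACCaggauauuguugggga

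The window of 300 bases around the RefSeq start of Aatk, at chr10:105825569-105825868 on the minus strand of GRCr8, was searched on both strands for 2 forms of the Sox core motif, ACAAAG and ACAATG. It is shown because Sox10 was the gene inactivated. Each form occurred 1 time, on the reverse strand, and is in capitals.
Aatk promoter: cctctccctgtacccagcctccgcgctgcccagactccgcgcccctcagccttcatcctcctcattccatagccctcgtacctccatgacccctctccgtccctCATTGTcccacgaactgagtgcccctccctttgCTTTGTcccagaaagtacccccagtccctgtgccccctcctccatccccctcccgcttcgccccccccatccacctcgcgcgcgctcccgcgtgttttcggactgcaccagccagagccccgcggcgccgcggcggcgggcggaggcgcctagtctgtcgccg
ACAATG was matched at positions 105 to 110 and ACAAAG at positions 138 to 143 of the window, without overlap. Of 33469 promoter windows of this length, 18.8% held ACAAAG, 13.2% held ACAATG and 29.1% held at least 1 of both. The windows of Lmtk2 and Lmtk3 held neither form. The Myrf motif in its forms CTGGCAC and CTGGTAC was found in 6.78% of all windows and in none of those of the 3 kinases. The matches are a description of these letters. The intronic enhancer was not searched here.

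Sox10, the inactivated gene, had 28 and 64 counts in the control libraries against 0 in clone A and 14 in clone B (log2 fold change -2.74, standard error 0.62). The adjusted p was 0.0172 by the quasi-likelihood test of edgeR. Sox10 counts were thus lower in both clones than in both controls, but clone B kept some. The call of Sox10 as lower was lost with DESeq2 and in 3 other fits. Library totals ranged from 60951 to 104017 counts. Levels are given as normalized counts per M counts (CPM). At this depth 3 counts equal 29.1 to 48.0 CPM, and the Poisson intervals given below cover counting error only.

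Counts assigned to Aatk were strongly reduced in both Sox10-deficient clones. Control 1 held 37 and control 2 held 48 Aatk counts, whereas clone A held 4 and clone B 8. The corresponding levels were 591 CPM (95% exact Poisson interval 416 to 815) and 465 CPM (343 to 617) in the controls. Clone A reached 46.5 CPM (12.7 to 119), and clone B reached 90.6 CPM (39.1 to 179). Both clones lay below both controls, and even the Poisson intervals of the groups did not overlap. Clone A reached 8.79% and clone B 17.1% of the mean control level, and the intervals of the clones overlapped each other. Over the groups, Aatk levels were 528 ± 89.2 CPM in controls and 68.5 ± 31.2 CPM in clones (SD, n = 2 each). The difference in means was thus larger than the spread between libraries of either group.

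In the fit across all genes, Aatk had a log2 fold change of -2.91 with a standard error of 0.46 (adjusted p = 0.00104 by edgeR's quasi-likelihood test), which corresponds to a 7.49-fold lower level. The summed counts, scaled by library size, gave a ratio of 0.134 with an exact 95% interval from 0.067 to 0.247. Of all tested genes, 61 (2.5%) were called lower by a change of at least 2-fold and an adjusted p of 0.05 or less, and 27 (1.11%) were called higher, together 3.61%. Aatk ranked at position 14 by its p-value among all tested genes and at position 24 by size of decrease among the 61 called lower. Both clones lay below both controls for 21.4% of all tested genes and above both for 21.6%, so that separation of the groups alone was common. An exact two-sided permutation test on the Aatk level gave p = 0.333, the smallest value that 2 against 2 libraries allow.

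**Figure D1:**
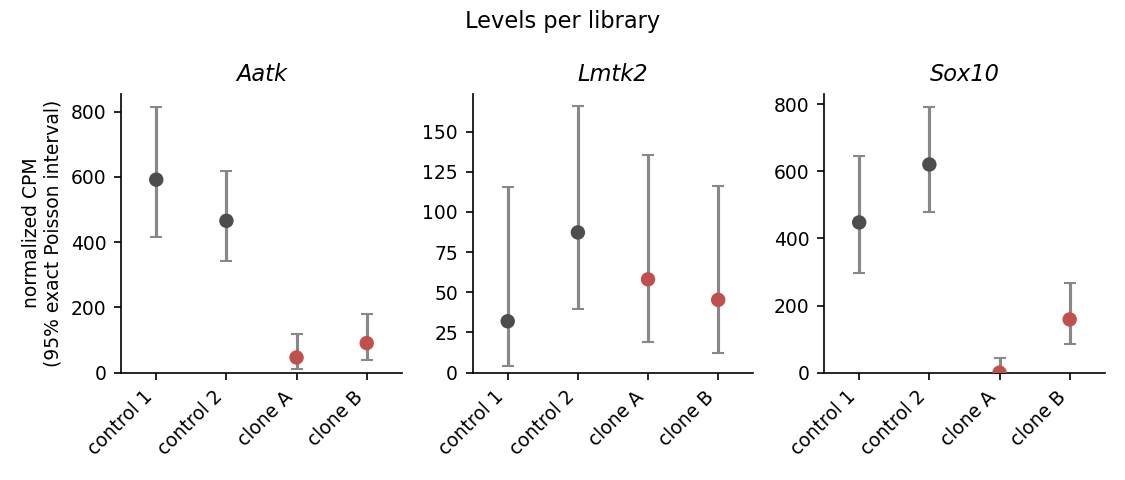
Normalized CPM of Aatk, Lmtk2 and Sox10 in each library, with 95% exact Poisson intervals as bars. The panels have separate linear axes. Aatk lies at 591 and 465 CPM in the controls and at 46.5 and 90.6 CPM in the clones, whereas the Lmtk2 values of both groups overlap.

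**Figure D2:**
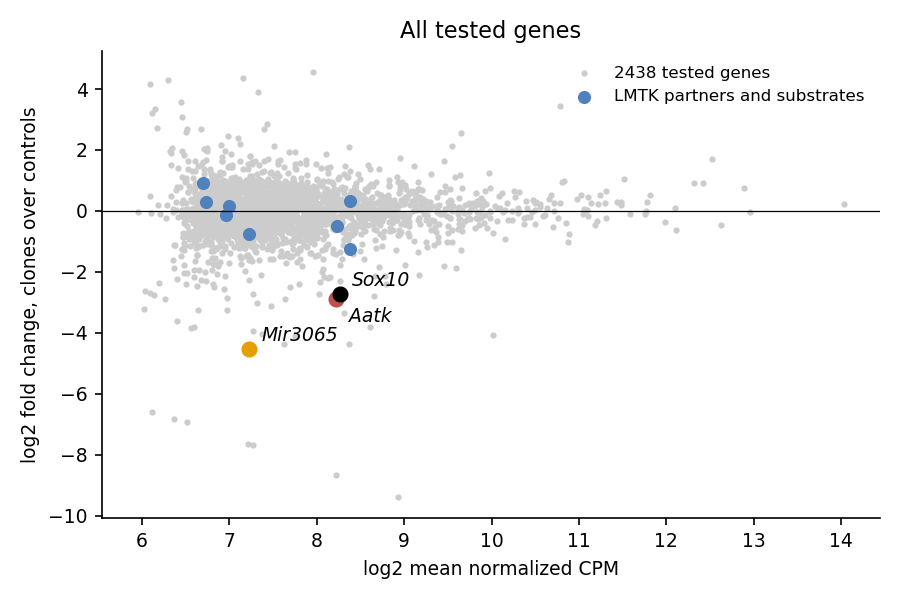
Log2 fold change of clones over controls against log2 mean normalized CPM for the 2438 tested genes (grey points), with Aatk, Sox10, Mir3065 and the tested partners and substrates of lemur kinases (blue) marked. Aatk lies next to Sox10 at -2.91 on the vertical axis, and the partners lie between -1.25 and 0.90.

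The decrease was also found with other tools and scalings. In 7 other fits of all 4 libraries, the log2 fold change of Aatk ranged from -2.93 to -2.17, and all 7 called it lower. The value nearest to zero came from DESeq2 with a prior on fold changes. When each library was left out in turn, the log2 fold change ranged from -3.46 to -2.50. Without control 2, the log2 fold change was -3.11, but the adjusted p rose to 0.386 by the same edgeR test. In that fit no gene at all was called, although 138 genes were at least 2-fold lower and 137 at least 2-fold higher at an unadjusted p of 0.05 or less.

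**Figure D3:**
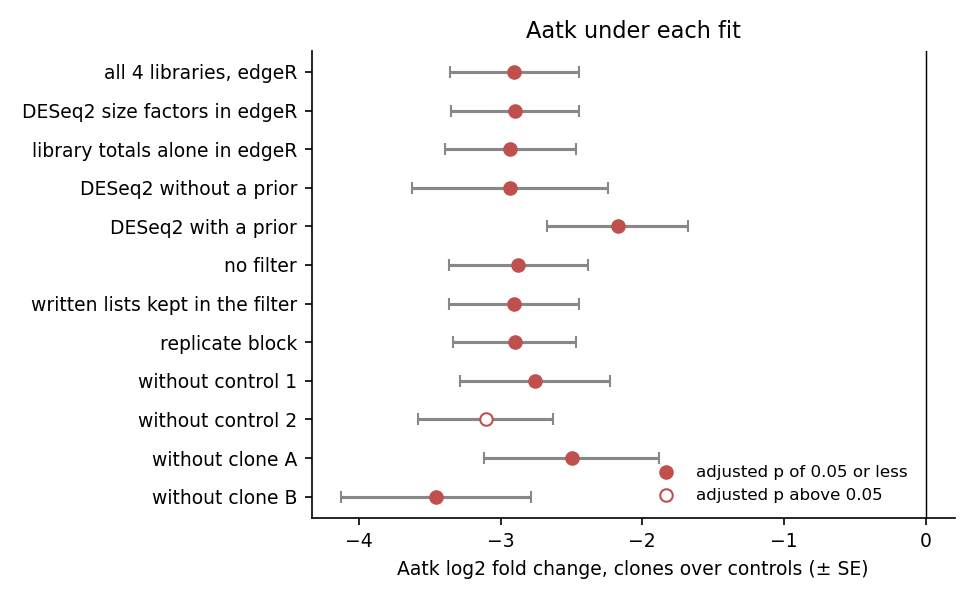
Log2 fold change of Aatk, clones over controls, with its standard error as bar, in each fit in which it was tested. Filled points have an adjusted p of 0.05 or less and the open point, without control 2, has 0.386. All values lie between -3.46 and -2.17.

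Lmtk2, the paralogue that binds myosin VI and protein phosphatase 1, gave few counts. There were 2 and 9 counts in the controls, with 5 in clone A and 4 in clone B. These correspond to 32.0 CPM (95% exact Poisson interval 3.87 to 115), 87.2 CPM (39.9 to 166), 58.1 CPM (18.9 to 136) and 45.3 CPM (12.3 to 116). Both clones lay between the 2 controls, and all 4 intervals overlapped. The group levels were 59.6 ± 39.1 CPM in controls and 51.7 ± 9.04 CPM in clones (SD, n = 2 each). A difference was not detectable at this depth. The ratio of clones to controls for Lmtk2 was 0.777, and its exact 95% interval from 0.285 to 2.06 includes both a more than 3-fold decrease and a 2-fold increase. A fit without the filter gave -0.27 on the log2 scale (standard error 0.91, adjusted p = 0.961 by edgeR). Without control 2, the log2 ratio for Lmtk2 was 0.67, so that its direction depended on that library.

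The relation between both paralogues within a library needs no library size. Aatk made up 37 of 39 Aatk and Lmtk2 counts in control 1, or 94.9% (95% Clopper-Pearson interval 82.7 to 99.4), and 48 of 57 in control 2, or 84.2% (72.1 to 92.5). It made up 4 of 9 counts in clone A, or 44.4% (13.7 to 78.8), and 8 of 12 in clone B, or 66.7% (34.9 to 90.1). Both clones lay below both controls. The interval of clone A did not reach that of control 1, but the interval of clone B overlapped those of both controls. Summed over the libraries of a group, the share of Aatk was 88.5% (80.4 to 94.1) in controls and 57.1% (34.0 to 78.2) in clones. An exact two-sided permutation test over libraries gave p = 0.333, again the smallest possible value. Levels of the paralogues were not compared otherwise, since no gene lengths of this build were used.

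At the Aatk locus, counts were also found for Mir3065 but not for Mir338. Mir338, which lies on the strand of Aatk, had 0 counts in all 4 libraries. Mir3065 had 10 and 43 counts in controls 1 and 2 against 0 and 2 in clones A and B. The authors' mean normalized count for Mir3065 was 0 despite these counts. Levels of Mir3065 were 288 ± 182 CPM in controls and 11.3 ± 16.0 CPM in clones (SD, n = 2 each). Both clones lay below both controls, but the controls differed strongly from each other. The fitted log2 fold change of Mir3065 was -4.55 with a standard error of 0.85 (adjusted p = 0.00425 by edgeR's quasi-likelihood test). The ratio of its summed counts was 0.036, with an exact 95% interval from 0.0042 to 0.136. It was called lower in every other fit in which it was tested, with log2 fold changes from -7.67 to -2.34, but was not tested without control 2. Libraries of this kind are made from polyadenylated RNA, so that counts at a hairpin gene can come from longer transcripts of the locus rather than from mature microRNAs.

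The strand behind these counts was examined for all microRNA genes that lie inside a single protein-coding gene. Of 36 such genes on the strand opposite to their host, 19 had counts, with a sum of 837. Of 121 on the same strand, 8 had counts, with a sum of 32. On the opposite strand, Mir762 and Mir6328 gave 650 of these counts, and 17 other genes gave the remaining 187. Over the genes that also have a value in the authors' table, counts summed to 341 for 31 genes on the opposite and to 13 for 104 genes on the same strand. The authors' means of these genes summed to 66 and 592, respectively. The deposited counts were also much lower than the authors' means, with a median of 0.384% (quartiles 0.271% and 0.528%) over 5353 genes with an authors' mean of at least 500. For Aatk, the authors' mean was 5319 and the mean deposited count 24.25, or 0.456% of it. For Lmtk2, these values were 1498 and 5, or 0.334%. The strand option of the counting is not given in the sources used here. Reads from Aatk RNA and from RNA of the opposite strand can therefore not be told apart in these counts. The same limit holds for every other gene given here, Sox10, Lmtk2, Cnp, the partners and the markers included. Each level is a level of counts assigned to the gene's symbol, and the strand of the reads behind it is not known.

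**Figure D4:**
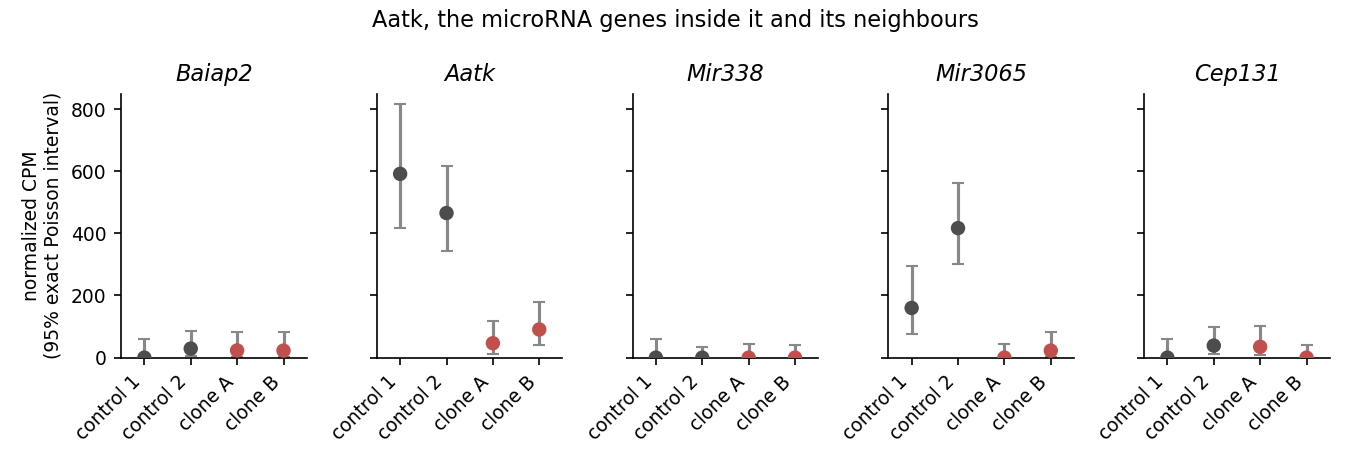
Normalized CPM per library, with 95% exact Poisson intervals, for Aatk, the microRNA genes Mir338 and Mir3065 inside it, and the adjoining genes Baiap2 and Cep131, on a shared linear axis. Aatk and Mir3065 are lower in both clones than in both controls, whereas Mir338 has 0 counts throughout and the adjoining genes have at most 4 counts per library.

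The genes that adjoin Aatk had hardly any counts. Baiap2, which codes for an adaptor of the actin cytoskeleton and lies on the opposite strand, had 0 and 3 counts in controls and 2 in either clone. Cep131, a centrosomal protein gene on the strand of Aatk, had 0 and 4 counts in controls against 3 and 0. All of these values were near the floor of 3 counts. Neither gene overlaps Aatk in GRCr8. Of the other genes looked for near Aatk, Chmp6 had 0, 1, 1 and 0 counts and Enthd2 had 0, 0, 2 and 4 in control 1, control 2, clone A and clone B. None of the 4 genes was tested, and these levels were too low for a decrease to be detected. Next to Lmtk2, Bhlha15 had 0 counts in all 4 libraries.

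The proteins with which lemur kinases work were represented by a written list of 19 partner and substrate genes. Of these, 17 had a row, 3 had 0 counts in all libraries (Cdk5r1, Cdk5r2 and Cftr) and 8 were tested. None of the 8 was called lower and none higher by edgeR, where 2.5% and 1.11% of all tested genes were called, and Klc1 alone was changed at least 2-fold at an unadjusted p of 0.05 or less, where 11.6% of all tested genes were. With 8 genes, these counts are near the background. Of their log2 fold changes 4 were below and 4 above zero, with a median of 0.011, against -0.0059 over all tested genes. The summed level of the list was 2286 CPM in control 1, 1687 CPM in control 2, and 1684 and 1710 CPM in the clones. Klc1 gave 783 CPM of the sum in control 1.

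Catalytic subunits of protein phosphatase 1 and its inhibitor bind to Lmtk2. Ppp1ca had 16 and 34 counts in controls against 32 and 33 in clones (log2 fold change 0.32, standard error 0.36). Ppp1cb had 10 and 9 counts in controls against 9 and 14 in clones (log2 fold change 0.15, standard error 0.60). Ppp1cc had 14 and 16 counts against 10 and 9 (log2 fold change -0.76, standard error 0.55). The levels of both groups did not overlap for Ppp1ca and Ppp1cc, which lay in opposite directions. Such separation, in either direction, was found for 43% of all tested genes. Ppp1r2, which codes for the phosphatase inhibitor 2, had 7 and 4 counts against 15 and 8 (log2 fold change 0.90, standard error 0.75). The adjusted p of these 4 genes was between 0.595 and 0.963 by edgeR.

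Klc1 codes for a light chain of kinesin, a motor that carries membrane cargo along microtubules. It had 49 and 18 counts in controls against 16 and 17 in clones, which corresponds to 783 CPM in control 1 and between 174 and 193 CPM in the other libraries. Control 1 thus stood apart from the rest. The log2 fold change of Klc1 was -1.25 with a standard error of 0.53 (adjusted p = 0.260 by edgeR), and without control 1 it was 0.093.

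Genes of the Rab11 route, on which Aatk acts, were covered by 2 tested members. Rab11b, a GTPase of recycling endosomes, had 7 and 15 counts in controls against 6 and 15 in clones (log2 fold change -0.13, standard error 0.61). Tbc1d9b, which codes for a GTPase-activating protein for Rab11, had 8 and 7 counts against 15 and 5 (log2 fold change 0.29, standard error 0.73). For both genes, the clones differed from each other by more than the group means did. Rab11a was not tested, with 0 and 13 counts in controls and 4 and 8 in clones. Trim28, a transcriptional corepressor that binds Lmtk3, had 18 and 42 counts against 20 and 24 (log2 fold change -0.49, standard error 0.38, adjusted p = 0.629 by edgeR). Its clones lay below both controls when expressed as CPM, as was found for 21.4% of all tested genes.

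The remaining partners had too few counts for the test. Gsk3b, a kinase downstream of Lmtk2, had 1 and 3 counts in controls against 10 and 6 in clones, a ratio of 3.80 with an exact 95% interval from 1.23 to 15.6. It was singled out after its values were seen. When the filter was made to keep list genes, the fit gave 1.89 on the log2 scale, with a standard error of 1.12 (adjusted p = 0.484 by edgeR). Slc12a2, the sodium, potassium and chloride cotransporter whose regulation involves Aatk, had 9 and 11 counts against 4 and 8. Cdk5 had 1 and 2 counts in controls and 0 and 4 in clones. Of the 14 partners fitted in this way, none was called in either direction by edgeR, against 3.97% of the 2468 genes in that fit. Klc1 alone was changed at least 2-fold at an unadjusted p of 0.05 or less, against 11.7%, so that these counts too are near the background.

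**Figure D5:**
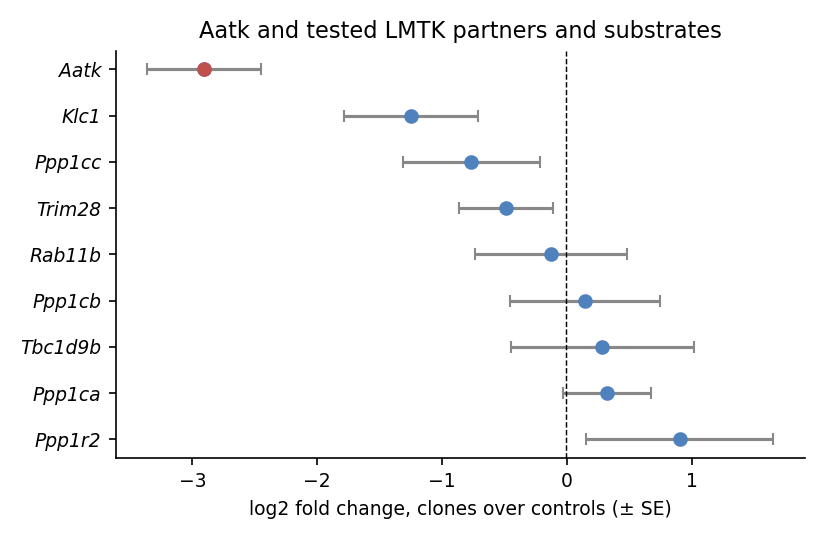
Log2 fold change, clones over controls, with its standard error as bar, for Aatk (red) and the 8 tested partners and substrates of lemur kinases (blue). Aatk lies at -2.91, and the partners lie from -1.25 for Klc1 to 0.90 for Ppp1r2, none of them called.

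Genes known as targets of the differentiation-promoting microRNAs miR-338 and miR-219 showed no call in either direction. Of 5 genes on this list, 4 had a row and 2 were tested. Over all tested genes 3.61% were called in either direction, so that no call among 2 genes is near the background. Sox6, which codes for a Sox protein that keeps OPCs immature, had 18 and 19 counts in controls against 16 and 14 in clones (log2 fold change -0.42, standard error 0.45, adjusted p = 0.770 by edgeR). Pdgfra, the receptor for platelet-derived growth factor A on OPCs, had 23 and 38 counts against 31 and 44 (log2 fold change 0.22, standard error 0.34, adjusted p = 0.860 by edgeR). For both genes, the values of the groups overlapped. Hes5, a repressor of differentiation, had 3 counts in control 2 and 0 in all other libraries, and Foxj3 had between 1 and 6 counts per library.

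Among genes whose regulatory regions were tested in reporters together with that of Aatk, Cspg4 and Pdgfra passed the filter. Cspg4, the gene for the NG2 proteoglycan of OPCs, had 16 and 31 counts in controls against 58 and 36 in clones. Its levels were 256 and 301 CPM in controls and 674 and 408 CPM in clones, without overlap. Both clones lay above both controls for 21.6% of all tested genes. The log2 fold change of Cspg4 was 0.93 with a standard error of 0.35 (adjusted p = 0.196 by edgeR), so that it missed the threshold. Mag and Wnt7a had 0 counts in all libraries, and Mbp had 2 counts in clone A alone. Tgfb2, the gene for transforming growth factor beta 2, had 3 and 16 counts in controls and none in either clone. Id4, which codes for an inhibitor of bHLH transcription factors, had 8 and 7 counts in controls and none in either clone. Both genes lay lower in the clones but did not pass the filter. The paper had picked them from genes that were lower in Sox10-deficient OLN93 cells in these same data. Their decrease here is therefore not an independent result. The mean control level was 2.95-fold the floor of 3 counts per clone library for Tgfb2 and 2.84-fold for Id4. These ratios leave out counting error, so that they are not lower bounds, and they carry no test. Tgfb2 in control 1 was itself at 3 counts.

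Aatk was compared with 12 myelin and late oligodendrocyte genes, because miR-338 accompanies differentiation. Of these, 6 had 0 counts in all libraries and 3 were tested. Their median log2 fold change of -0.75 is the value of Myrf alone, against -0.0059 over all tested genes. Over all tested genes 2.5% were called lower, and 3 genes are too few to be compared with that share. Cnp, which codes for a phosphodiesterase of non-compact myelin, was called lower, with 62 and 68 counts in controls against 35 and 20 in clones (log2 fold change -1.36, standard error 0.34, adjusted p = 0.0331 by edgeR). Its clones lay below both controls, as was found for 21.4% of all tested genes. The call of Cnp was lost with DESeq2 (adjusted p = 0.200 without a prior) and when control 1 (0.0931), control 2 (0.497) or clone B (0.300) was left out. It was also lost with at least 10 counts required in every library (adjusted p = 0.0611 by edgeR). Myrf, the transcription factor that drives myelination, had 10 and 12 counts against 8 and 6 (log2 fold change -0.75, standard error 0.67, adjusted p = 0.707 by edgeR). Mog, a gene for a minor myelin protein, had 12 and 18 counts against 13 and 11 (log2 fold change -0.40, adjusted p = 0.818 by edgeR). The authors' mean for Mog was 0 despite these counts.

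The genes with profiles most like that of Aatk were taken by Euclidean distance of centred log2 CPM over the 4 libraries. With only 4 libraries, this likeness mainly reflects the size of the difference between the groups, and it is given as a description. The nearest was Itgb8, an integrin subunit that activates transforming growth factor beta, at a distance of 0.260. Itgb8 had 23 and 35 counts in controls and 2 and 6 in clones. Cdk1, the kinase of mitotic entry, followed at 0.408 with 17 and 18 counts against 1 and 4. Cmtm5 lay at 0.566 with 15 and 13 counts against 0 and 3, and Ddr1, a collagen receptor, lay at 0.574 with 25 and 25 against 3 and 3. Thbs1, which codes for the matrix protein thrombospondin 1, lay at 0.589 with 64 and 88 counts against 14 and 24. All 5 had fewer counts in both clones than in both controls. For Lmtk2, the nearest were Runx1 (0.0865), Adck5 (0.133), Hmga2 (0.137), Tmem80 (0.140) and Psma7 (0.154), none of which was called. Each of these 5 had fewer counts in control 1 than in any other library.

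The labelled cell type was checked against its markers. Of 7 OPC markers, 4 were tested, namely Sox10, Pdgfra, Cspg4 and Nkx2-2. Sox10 alone was called lower, where 2.5% of all tested genes were. As Sox10 is the edited gene, its call says nothing about the other markers. Nkx2-2, a transcription factor of the lineage, had 20 and 52 counts in controls against 18 and 25 in clones (log2 fold change -0.77, standard error 0.38, adjusted p = 0.359 by edgeR). The summed level of all 7 OPC markers was 1726 and 1803 CPM in the controls and between 1266 and 1348 CPM in the clones. This sum includes Sox10, the edited gene. Without Sox10, the sums of both groups overlap, so that the difference rests on Sox10 itself. Sox10 gave 448 and 620 CPM of the sum in controls 1 and 2, and 0 and 159 CPM in clones A and B. Olig2, a defining factor of the lineage, had 7 counts in control 1 and 0 in the other libraries, and Olig1 had 12 and 1 counts in controls and 0 in both clones. Of the markers of myelinating oligodendrocytes, 3 of 6 were at 0, as were 5 of 6 astrocyte, 4 of 6 neuron and 2 of 4 microglia markers. The summed level lay between 128 and 174 CPM in controls and 45.3 and 105 CPM in clones for neuron markers, and between 63.9 and 136 CPM against 45.3 and 58.1 CPM for microglia markers. Map2, a neuronal gene for a microtubule-associated protein, had 8 and 17 counts in controls against 8 and 4 in clones (log2 fold change -1.09, standard error 0.68, adjusted p = 0.516 by edgeR). Its CPM in both clones lay below both controls, as was found for 21.4% of all tested genes. Csf1r, a receptor of microglia, had 4 and 13 counts against 5 and 4 and was not tested. The authors' mean was 13 for Csf1r and 0 for Olig2, against mean deposited counts of 6.5 and 1.75. Deposited means were 2.12% of the authors' mean for Olig1 and 1.94% for Nkx2-2. They were 0.400% for Sox10, 0.403% for Pdgfra and 0.347% for Cspg4. All 6 Schwann cell markers had counts, with sums of 735 to 795 CPM in controls and 23.2 to 34.0 CPM in clones. Ngfr, the neurotrophin receptor gene in this list, had 37 and 62 counts in controls and 0 in both clones. Ngfr alone gave 591 and 601 CPM of the sums in controls 1 and 2, so that the difference is largely that of 1 gene. Pmp2 and Ncmap had 1 count each over all libraries, for Ncmap in clone B. The part of these markers in the result for Aatk was not tested.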

How the data were processed

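RNA-Seq data of 2 control and 2 Sox10-deficient libraries were analysed. After mapping with STAR (2.5.1, per the labels) to rat build rn5, the authors deposited counts per gene symbol from HTSeq for each library, without normalization. They also deposited a table with a mean normalized count per Ensembl gene, rounded to whole numbers and treated as a score. Its log2 fold changes, standard errors, Wald statistics and p-values were not used. Library totals were 60951 to 104017 counts.

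The quasi-likelihood test of edgeR 4.0.16 (R 4.3.3) was applied to the counts after filterByExpr and TMM scaling, with no covariate. Benjamini-Hochberg adjustment covered 2438 genes. Standard errors were derived from the F statistic. The procedure was tested on simulated data. Exact intervals and permutation tests used scipy 1.17.1 (Python 3.11.15). Sequences were taken from RefSeq (GRCr8), which matched Aatk, Lmtk2, Lmtk3 and both microRNA genes by symbol. Alternatives comprised DESeq2 1.42.0 (without or with a prior), its size factors or totals alone, no filter, list genes kept, a minimum of 10 counts per library, the replicate number as a term, and each library left out.

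Named genes were the members, the microRNA genes inside Aatk, Sox10, tested partners, adjoining genes, the 5 nearest profiles (log2 CPM with a prior count of 2) and, of other lists, called genes or those with at least 20 counts in all. Gsk3b, Slc12a2, Rab11a, Cdk5, Hes5, Foxj3, Olig1, Olig2, Tgfb2, Id4, Mbp, Pmp2, Ncmap, Mir762, Mir6328, Chmp6 and Enthd2 were named after their values were seen. The members and lists were chosen with earlier results of these data known.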

Additional observations from a re-analysis of the deposited data

How the results depend on the processing

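Aatk kept its direction in every fit and its call in all but the fit without control 2. With the replicate number as a block, its log2 fold change was -2.90 (adjusted p = 0.0401 by edgeR). The pairing of libraries by number rests on a shared number alone (correlation of deviations 0.12 over 2438 genes). Of 61 genes called lower and 27 called higher, DESeq2 without a prior gave 28 and 8, DESeq2 with a prior 30 and 8, at least 10 counts in every library 8 and 9 of 1122 genes tested, and the replicate block 28 and 11. Without a filter, 44 were called higher. Leaving out each library gave between 0 and 70 lower and between 0 and 39 higher genes. The lowest count, 0 in both directions, came without control 2. Without clone A, 39 were lower and 16 higher, and without clone B 44 and 15. Aatk ranged from -3.46 to -2.50 in these fits and Lmtk2 from -0.78 to 0.67. With a minimum of 10 counts per library, Aatk was not tested.

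Sox10 missed the threshold with DESeq2 without a prior (-2.74, adjusted p = 0.99978) and with a prior (-0.51), with the replicate block (-2.82, adjusted p = 0.125 by edgeR), without control 2 and without clone A. It ranged from -8.51 to -1.75 when libraries were left out, where the lowest value depends on the prior count because clone A was at 0. The cause of these changes was not tested.

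Over 28 other named genes, 284 of 318 alternative values kept direction and call, 17 lost the call, 3 gained it and 14 changed sign. Each sign change came from leaving out 1 library, and no gene that changed sign had been called. The ranges were -0.31 to 0.56 for Ppp1cb, -2.07 to 0.093 for Klc1, -0.89 to 0.38 for Rab11b, -0.72 to 0.88 for Tbc1d9b, -0.036 to 0.45 for Pdgfra, -0.69 to 0.65 for Runx1, -0.78 to 0.53 for Adck5, -0.65 to 0.32 for Hmga2, -0.59 to 0.62 for Tmem80 and -0.45 to 0.54 for Psma7. At this depth a gene with few counts, such as Lmtk2, could change by 2-fold without being detected.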
